A study of Mus musculus with 10 samples.

Results

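Transcript levels of 10 interferon-inducible GTPases were examined in the livers of mouse fetuses at E18.5, shortly before birth. The set held 6 immunity-related GTPases of the IRG family (Irgm1, Irgm2, Igtp, Iigp1, Ifi47 and Tgtp2) and 4 guanylate-binding proteins of the GBP family (Gbp2, Gbp3, Gbp6 and Gbp7). Members were taken by name, each as the row of its Ensembl gene identifier, and all 10 were found among the 55401 genes of the count table. All 10 also passed the filter on low counts, as did 14098 genes in total.

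IRG and GBP proteins are among the most strongly induced products of interferon signalling in the mouse. They act inside the cell against bacteria and protozoa that live in vacuoles, by coating and disrupting the vacuole membrane. Among the IRG proteins, Irgm1, Irgm2 and Igtp sit on the membranes of the host's own organelles and hold the effector IRG proteins in check, whereas Iigp1, Tgtp2 and Ifi47 belong to the effector group. GBP proteins are larger GTPases of the dynamin type, which gather on microbial membranes and promote the detection of bacterial products by inflammasomes. Interferons switch these genes on through STAT and IRF factors bound to promoter elements called ISRE (interferon-stimulated response element) and GAS (gamma-activated site).

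The livers came from 5 Mir483Pat-KO fetuses and 5 WT littermates, all female. In Mir483Pat-KO fetuses the microRNA gene Mir483, which lies within the growth factor gene Igf2, was absent from the paternal allele in every cell, while the maternal allele was intact. The line was derived from 2 independent clones of C57BL/6N embryonic stem cells and was kept on a C57BL/6J background, and WT fetuses carried no engineered allele. The study used this comparison to ask what constitutive loss of Mir483 does to the liver transcriptome.

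Whole liver was sequenced, so that fewer cells of a type and less RNA per cell cannot be told apart. Libraries held 10831350 to 14765880 counts. Mir483 itself had 11, 10, 22, 21 and 12 counts in WT replicates 1 to 5 and 0 counts in every Mir483Pat-KO library. The labels' identification numbers fell into a lower range with 4 WT and 2 Mir483Pat-KO libraries and an upper range with the rest, and nothing states if these ranges stand for litters or days. Whether same-group libraries came from separate litters is not stated either, so that p-values measure the spread between these fetuses.

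The mature products of the deleted gene are shown with their seeds, bases 2 to 8, in capitals. Both are from RefSeq (GRCm38.p6, minus strand of chromosome 7, miR-483-3p at chr7:142654932-142654952 and miR-483-5p at chr7:142654968-142654989).
mmu-miR-483-3p: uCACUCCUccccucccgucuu
mmu-miR-483-5p: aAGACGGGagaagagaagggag
A 7-base match to the miR-483-3p seed was found in the longest annotated 3′ UTR of 0 of the 10 members, against 10.7% of 21021 genes with a 3′ UTR. A match to the miR-483-5p seed was found in Igtp alone among the 10, against 2.68% of the same genes. A seed match is a description of the sequence, and no binding was measured.

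Promoter sequence was read because interferon response elements are what these genes are known to share. RefSeq windows from 250 bases before to 50 bases after the transcription start were held for 8 of the 10 members. The windows of Iigp1 and Gbp6 were not used here. The core of the ISRE was searched on both strands as GAAA, any 2 bases and GAAA (on the other strand TTTC, any 2 bases and TTTC), and the GAS as TTCNNNGAA, which is its own reverse complement. Sequences run 5′ to 3′ on the strand of the gene, up to the base before the start, with motif bases in capitals. Only 30 bases around the motif are given for Irgm1 and Gbp2, whose windows overlap exons of other annotated transcripts by more than that.
Irgm1 (chr11:48871428-48871457, minus strand): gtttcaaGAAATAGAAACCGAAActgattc
Tgtp2 (chr11:49064213-49064332, minus strand): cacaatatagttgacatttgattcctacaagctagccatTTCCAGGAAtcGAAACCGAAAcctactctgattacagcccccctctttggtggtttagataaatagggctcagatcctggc
Igtp (chr11:58199436-58199555, plus strand): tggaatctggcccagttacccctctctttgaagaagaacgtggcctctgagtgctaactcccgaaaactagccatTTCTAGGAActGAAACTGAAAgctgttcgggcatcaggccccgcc
Irgm2 (chr11:58214857-58214976, plus strand): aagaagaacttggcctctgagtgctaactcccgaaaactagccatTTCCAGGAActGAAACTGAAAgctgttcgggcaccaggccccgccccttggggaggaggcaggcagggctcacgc
Gbp3 (chr3:142559924-142560043, plus strand): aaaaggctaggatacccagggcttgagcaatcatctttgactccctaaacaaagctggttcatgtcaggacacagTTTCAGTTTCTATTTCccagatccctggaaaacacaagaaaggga
Gbp7 (chr3:142530216-142530335, plus strand): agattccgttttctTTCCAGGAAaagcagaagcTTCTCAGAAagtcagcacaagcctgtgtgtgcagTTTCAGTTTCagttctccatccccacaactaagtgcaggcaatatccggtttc
Gbp2 (chr3:142620594-142620623, plus strand): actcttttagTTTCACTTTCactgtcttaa
The ISRE core was present in 7 of the 8 members with a window, all but Ifi47, against 3.44% of all 32851 windows. The GAS was present in 4, namely Irgm2, Igtp, Tgtp2 and Gbp7, against 8.30% of windows, and both motifs were present in the same 4, against 0.454%. Irgm1 and Gbp3 each held 2 overlapping ISRE cores and no GAS. Gbp3 has a further RefSeq start, whose window held neither motif.

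Irgm2, Igtp and Tgtp2 shared the same layout, a GAS followed on the same strand by an ISRE core after a gap of 2 bases. In Igtp the GAS lay 45 to 37 bases and the ISRE 34 to 25 bases before the start. In Irgm2 they lay at 75 to 67 and 64 to 55 bases, and in Tgtp2 at 81 to 73 and 70 to 61 bases. Igtp and Irgm2 are neighbours on chromosome 11, and the longest stretch of identical bases between the 2 printed sequences was 38 bases. A match of letters does not show that a factor binds, and the absence of one says nothing about the factor.

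In WT liver the regulators Igtp, Irgm1 and Irgm2 and the effector Iigp1 were the most abundant members per length of transcript. Mean levels were 25.4 CPM per kilobase of exon for Igtp, 18.7 for Iigp1, 16.9 for Irgm1 and 15.7 for Irgm2, where CPM is the count of a gene scaled to the size of its library. Ifi47 followed at 9.84 CPM per kilobase, then Gbp7 at 5.31, Gbp2 at 3.76 and Gbp3 at 3.31. The lowest were Tgtp2 at 0.835 and Gbp6 at 0.750 CPM per kilobase. Each WT library gave the same order for 5 of the 9 neighbouring pairs, and the exceptions were Iigp1 with Irgm1, Irgm1 with Irgm2, Gbp2 with Gbp3, and Tgtp2 with Gbp6, whose order differed between libraries.

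In Mir483Pat-KO liver 9 of the 10 GTPases had a lower fitted level than in WT, where 49.1% of all genes tested did. At an adjusted p under 0.05, 5 members were lower (Irgm1, Irgm2, Iigp1, Tgtp2 and Gbp3) and 0 were higher, against a background of 2.76% of genes lower and 2.43% higher (edgeR quasi-likelihood test with Benjamini-Hochberg adjustment over all 14098 genes). At an unadjusted p under 0.05, 8 members were lower and 0 higher, where 10.7% of all genes were lower and 11.5% higher. DESeq2 also passed 5 lower and 0 higher, against 4.32% and 3.91% of all genes. At the adjusted threshold and a fold change over 1.5, 4 members were called lower (Irgm1, Iigp1, Tgtp2 and Gbp3), against 0.872% of all genes. The highest knockout library was under the lowest WT library for 5 members, the same 5 that passed, against 3.26% of all genes. The median log2 fold change was −0.326 over the 10 members and 0.0042 over all genes tested. Since the genes were chosen with results of these data known, these counts describe the members and are not independent evidence of a direction.

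**Figure D1:**
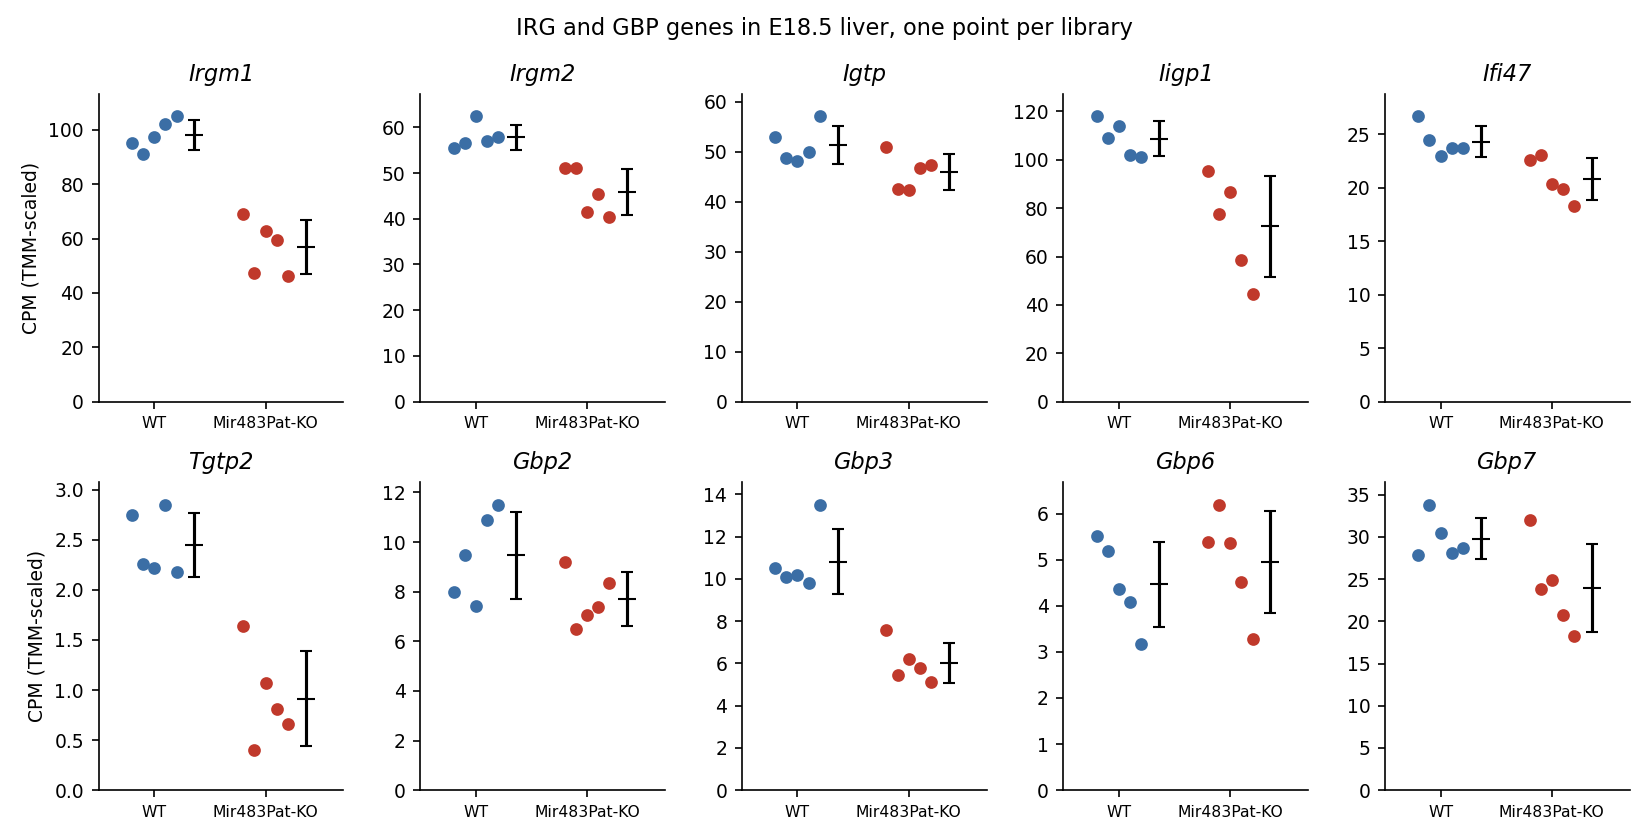
CPM (counts scaled to library size by TMM, axes from 0) of each of the 10 GTPases in every library, WT in blue and Mir483Pat-KO in red, with the mean and SD of 5 libraries as a black bar. The red points lie below all blue points for Irgm1, Irgm2, Iigp1, Tgtp2 and Gbp3, and the groups overlap for Igtp, Ifi47, Gbp2, Gbp6 and Gbp7.

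Irgm1, Irgm2 and Igtp, the 3 IRG proteins that restrain the effectors, had unequal fold changes. Irgm1 (ENSMUSG00000046879, chr11:48861968-48871683 in GRCm38, minus strand) is needed in the mouse for resistance to several intracellular bacteria and protozoa. Its levels were 95.3, 91.0, 97.3, 102 and 105 CPM in WT replicates 1 to 5. In Mir483Pat-KO replicates 1 to 5 they were 69.1, 47.4, 62.7, 59.6 and 46.2 CPM. The highest knockout library thus stood well below the lowest WT library. Irgm1 fell from 98.0 ± 5.44 to 57 ± 9.94 CPM (mean ± SD, n = 5 per group, with a fitted log2 fold change of −0.78 ± 0.0997 SE and an edgeR adjusted p of 0.00133). Its exons share almost no 50-base stretch with another gene (0.3%).

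Irgm2 (ENSMUSG00000069874, chr11:58199618-58222782, plus strand), a regulator found at the Golgi, had 55.5, 56.5, 62.4, 56.9 and 57.8 CPM in WT replicates 1 to 5. The Mir483Pat-KO values were 51.0, 51.0, 41.4, 45.4 and 40.4 CPM. The groups did not overlap, and replicates 1 and 2 were the knockout libraries nearest to WT. The fitted log2 difference was −0.34, with standard error 0.0778 (edgeR adjusted p = 0.0221). Without Mir483Pat-KO replicate 4 it was −0.34 with an adjusted p of 0.0558.

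Igtp (ENSMUSG00000078853, chr11:58199556-58207591, plus strand), also known as Irgm3, is found on the endoplasmic reticulum. WT replicates 1 to 5 held 53, 48.7, 48.1, 49.9 and 57.1 CPM and Mir483Pat-KO replicates 1 to 5 held 50.9, 42.6, 42.4, 46.7 and 47.3 CPM. Knockout replicate 1 lay within the WT range and the other 4 lay below it. The log2 fold change of −0.16 (standard error 0.0738) stayed short of the threshold, with an edgeR adjusted p of 0.217. Igtp and Irgm2 overlap on the same strand and share 50-base stretches, 11.8% of those of Igtp and 6.8% of those of Irgm2, so that a part of their reads can be exchanged.

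Among the effector IRG genes the size of the difference also varied. Iigp1 (ENSMUSG00000054072, chromosome 18) encodes the IRG protein that is most studied for loading onto the Toxoplasma vacuole. In WT replicates 1 to 5 it had 118, 109, 114, 102 and 101 CPM, the highest mean CPM of the 10 genes. In Mir483Pat-KO replicates 1 to 5 it had 95.5, 77.7, 86.5, 58.4 and 44.5 CPM. Every knockout value lay below the WT values, but the knockout libraries were spread widely, with replicate 5 lowest and replicate 1 next to the WT range. Means were 109 ± 7.39 and 72.5 ± 20.8 CPM (log2 fold change −0.59 ± 0.150 SE, edgeR adjusted p = 0.0337). The fold change of 1.5 stood at the limit used for calls. The adjusted p was 0.0859 in a robust quasi-likelihood fit and rose above 0.05 in 6 of the 10 fits that left out 1 library, to 0.0548, 0.0614, 0.0530 and 0.0543 without WT replicates 1, 3, 4 and 5 and to 0.0535 and 0.0954 without Mir483Pat-KO replicates 2 and 4.

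Tgtp2 (ENSMUSG00000078921, chr11:49057194-49064206, minus strand), an IRG protein of the effector group, showed the largest fold change of the 10 and was measured on few reads. Its levels in WT replicates 1 to 5 were 2.75, 2.26, 2.22, 2.85 and 2.18 CPM, or 27 to 37 counts. In Mir483Pat-KO replicates 1 to 5 they were 1.64, 0.397, 1.07, 0.812 and 0.658 CPM, or 5 to 21 counts. Replicate 1 was again the knockout library nearest to WT. The fitted log2 difference was −1.41, with standard error 0.285 (edgeR adjusted p = 0.0112).

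The Tgtp2 value cannot be read apart from its near-identical copy Tgtp1. Of the 50-base stretches in Tgtp2 exons, 85.8% also occur in Tgtp1. Tgtp1 stood at 6.58 ± 1.16 CPM in WT against 4.70 ± 0.484 CPM in the knockout (mean ± SD, n = 5 per group), and its log2 fold change was −0.49 (edgeR adjusted p = 0.0588). With the counts of both genes summed, an alternative added after the values were seen, the log2 fold change was −0.69 (edgeR adjusted p = 0.00874). The pair together was therefore lower, while its division between the copies depends on how reads with several matches were counted.

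Ifi47 (ENSMUSG00000078920, chr11:49076587-49096974, plus strand), also known as Irgd, had 23.0 to 26.7 CPM in WT against 18.3 to 23.1 CPM in the knockout. Of the 5 knockout libraries, 4 lay below all WT libraries. Its log2 fold change of −0.22 (standard error 0.0845) stayed short of the threshold, with an edgeR adjusted p of 0.133.

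Of the 4 GBP genes, Gbp3 was lower in Mir483Pat-KO and the other 3 did not pass the threshold. Gbp3 (ENSMUSG00000028268, chr3:142560026-142573209, plus strand) had 10.5, 10.1, 10.2, 9.78 and 13.5 CPM in WT replicates 1 to 5. Mir483Pat-KO replicates 1 to 5 had 7.57, 5.47, 6.20, 5.77 and 5.13 CPM. No knockout library reached the WT range, and WT replicate 5 stood apart above the other WT libraries. Gbp3 fell from 10.8 ± 1.54 to 6.03 ± 0.947 CPM (mean ± SD, n = 5 per group; log2 fold change −0.85 ± 0.132 SE, edgeR adjusted p = 0.00343).

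Gbp7 (ENSMUSG00000040253, chr3:142530342-142550149, plus strand), a GBP linked to assembly of the NADPH oxidase on vacuoles, was the most abundant GBP member. WT replicates 1 to 5 had 27.9, 33.8, 30.5, 28.1 and 28.7 CPM and Mir483Pat-KO replicates 1 to 5 had 32.0, 23.8, 24.9, 20.8 and 18.3 CPM. Knockout replicate 1 lay inside the WT range and the other 4 lay below it. The fitted log2 difference was −0.32, with standard error 0.121 (edgeR adjusted p = 0.137). Without Mir483Pat-KO replicate 1 it was −0.45 with an adjusted p of 0.0190, and once trends with GC content and length were removed it was −0.44 with an adjusted p of 0.0265. In the lower identification number range alone the Gbp7 difference was −0.11 (edgeR adjusted p = 0.747). With the range as a term over all 10 libraries it was −0.22 (edgeR adjusted p = 0.236).

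Gbp2 (ENSMUSG00000028270, chr3:142620602-142638008, plus strand), a GBP that is anchored to membranes by a lipid and gathers on the Toxoplasma vacuole, ranged between 7.44 and 11.5 CPM in WT, against 6.51 to 9.21 CPM in the knockout. The groups overlapped, and the fitted log2 difference was −0.30, with standard error 0.141 (edgeR adjusted p = 0.228). Gbp6 (ENSMUSG00000104713, chr5:105270702-105293698, minus strand) was the member with a higher fitted level in Mir483Pat-KO. It ranged between 3.17 and 5.51 CPM in WT, against 3.29 to 6.19 CPM in the knockout, nearly the same span. Its log2 fold change was 0.15, with a 95% confidence interval from −0.25 to 0.55 (edgeR adjusted p = 0.677). Of the 50-base stretches in Gbp6 exons, 65.0% also occur in Gm43302, an overlapping gene model on the same strand, so that the level of Gbp6 is uncertain.

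By family, 4 of the 6 IRG members and 1 of the 4 GBP members passed, against 2.76% of all genes lower, with median log2 fold changes of −0.462 and −0.306. Whether the families differ was not tested. The 3 members with the same promoter layout had log2 fold changes of −1.41 for Tgtp2 (−0.69 with the counts of Tgtp1 added), −0.34 for Irgm2 and −0.16 for Igtp, and whether these differ was not tested.

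**Figure D2:**
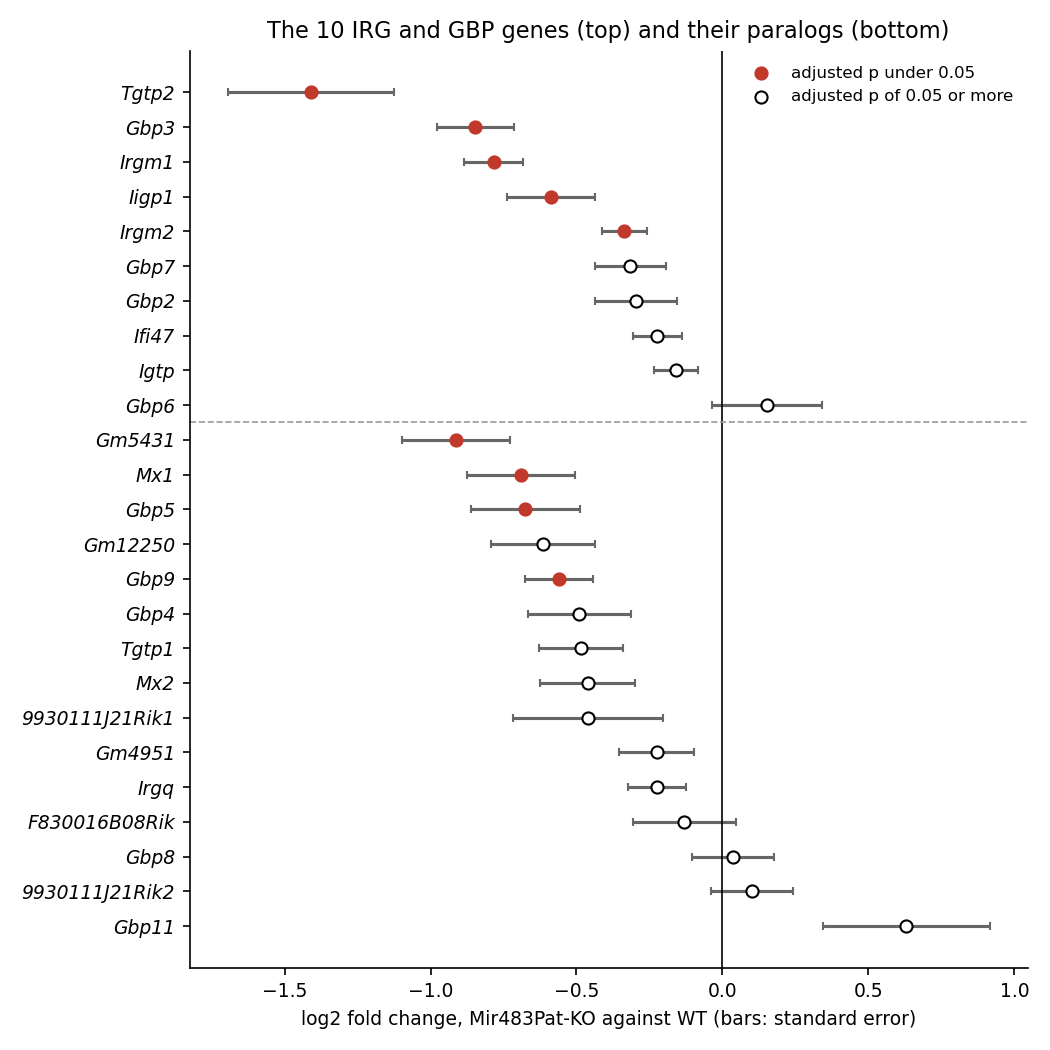
Log2 fold change of Mir483Pat-KO against WT with its standard error for the 10 members, above the dashed line, and for the 15 related GTPase genes tested, under it; filled points passed an adjusted p of 0.05. Of the members 5 passed, all lower, and of the related genes 4 passed, all lower.

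Ratios between related genes within a library cancel its scaling, apart from the small prior count added before logs were taken. The 7 ratios were chosen after the values were seen and are given without a test. The log2 ratio of Irgm1 to Igtp was 0.84 to 1.02 in the 5 WT libraries and −0.03 to 0.56 in the 5 Mir483Pat-KO libraries, without overlap. That of Irgm1 to Irgm2 was 0.64 to 0.86 in WT and −0.11 to 0.60 in Mir483Pat-KO, also without overlap. Relative to both, Irgm1 was lower in every knockout library, while the ratio of Irgm2 to Igtp overlapped (0.02 to 0.37 in WT and −0.22 to 0.26 in Mir483Pat-KO).

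The neighbouring GBP genes of chromosome 3 gave a similar picture. The log2 ratio of Gbp3 to Gbp7 was −1.74 to −1.08 in WT and −2.09 to −1.80 in Mir483Pat-KO. The ratio of Gbp3 to Gbp2 was −0.16 to 0.45 in WT and −0.69 to −0.18 in Mir483Pat-KO. Gbp7 to Gbp2, in contrast, was 1.31 to 2.02 in WT and 1.12 to 1.85 in Mir483Pat-KO, which overlap. For Tgtp2 to Tgtp1 the ranges of −1.82 to −0.94 in WT and −3.06 to −1.61 in Mir483Pat-KO overlapped in the values of knockout replicate 1.

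**Figure D3:**
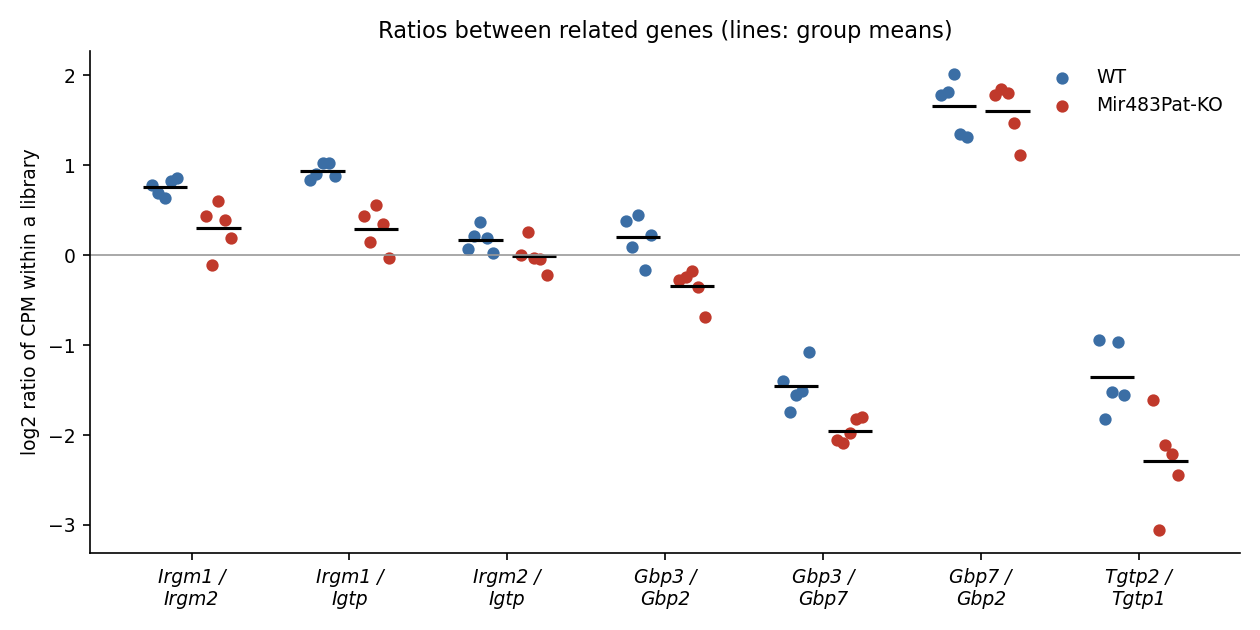
Log2 ratio of the CPM of 2 related genes within a library, for 7 pairs, with WT in blue, Mir483Pat-KO in red and black lines at the group means. Ratios with Irgm1 or Gbp3 as the upper gene do not overlap between the groups, and those of Irgm2 to Igtp, Gbp7 to Gbp2 and Tgtp2 to Tgtp1 do.

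The 5 Mir483Pat-KO livers were not alike. The CPM of the 10 genes summed to 390 to 404 in the WT libraries, which lay close together. The sums in Mir483Pat-KO replicates 1 to 5 were 345, 284, 298, 269 and 232 CPM. Replicate 1 was the nearest to WT and replicate 5 the farthest. Averaged over the members on the log2 scale, relative to the WT mean, these libraries stood at −0.16, −0.56, −0.42, −0.55 and −0.74. The number of members below all WT libraries was 6, 8, 9, 9 and 8 in the same order.

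**Figure D4:**
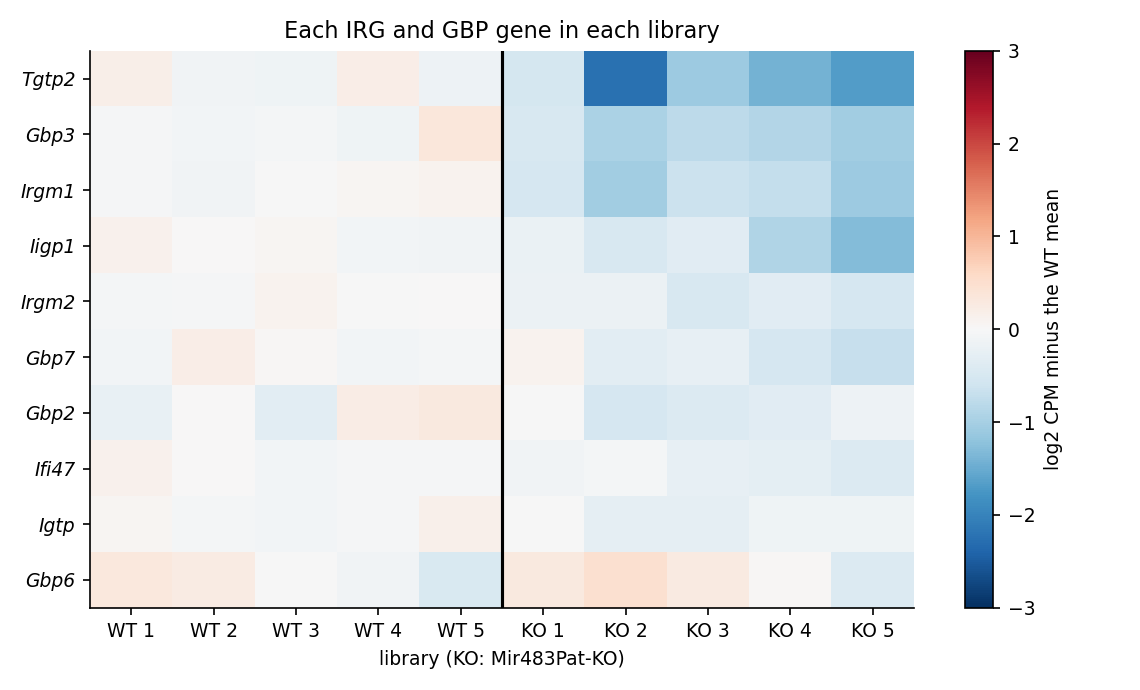
Log2 CPM of each member in each library minus the WT mean of that member, with blue for lower and red for higher values and a black line between WT and Mir483Pat-KO libraries. Tgtp2, Gbp3 and Irgm1 are the 3 lowest members in knockout replicates 1 to 3, Tgtp2 and Iigp1 the lowest pair in replicates 4 and 5, and the mean of Gbp6 is not lower.

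With the group means removed, the members tended to vary together over the 10 libraries. Pearson's r had a median of 0.41 over the 45 pairs of members, ranged from −0.56 to 0.86 and was above 0 for 37 pairs. The closest pairs were Iigp1 with Gbp7 (r = 0.86), Irgm1 with Tgtp2 (r = 0.84) and Ifi47 with Gbp6 (r = 0.81). Gbp2 and Gbp6 had the lowest value (r = −0.56). Gbp2 varied most with Igtp (r = 0.68), and Gbp6 varied with Ifi47 and with Iigp1 (r = 0.75) although its mean was not lower. These values are descriptions over 10 libraries, in which all genes share the depth and preparation of a library. No reference over pairs of other genes was computed. The mean of the members ran from −0.05 to 0.03 over the WT libraries and from −0.74 to −0.16 over the Mir483Pat-KO libraries. It thus varied mostly among the knockout livers.

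Among 12527 other genes with sufficient expression, the 5 whose deviations from the group means were most like the mean of the members were Parp14 (r = 0.90), Taf11 (r = 0.89), Gc (r = 0.89), Mpc1-ps (r = 0.88) and Eif2ak2 (r = 0.88). The median r over all these genes was −0.01 and the 99th percentile was 0.71. Parp14, an ADP-ribosyltransferase, and Eif2ak2, the kinase PKR that is activated by double-stranded RNA, are both known to be induced by interferon. Parp14 fell from 65.3 to 44.6 CPM (log2 fold change −0.55, edgeR adjusted p = 0.00384) and Eif2ak2 from 71.3 to 51.1 CPM (−0.48, adjusted p = 0.0144). The other 3 of the 5, among them Gc, the vitamin D binding protein of hepatocytes, did not pass, with log2 fold changes of 0.04 for Taf11, −0.15 for Gc and −0.15 for Mpc1-ps. The ranking used no group difference.

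Related GTPase genes outside the set were compared next. Of 25 listed IRG, GBP, GVIN and MX genes, 23 were found and 15 were tested. Of these, 12 had a lower fitted level in Mir483Pat-KO, 4 passed as lower and 0 as higher (edgeR, with 9 lower and 1 higher at an unadjusted p under 0.05, and 6 lower and 0 higher with DESeq2), and the median log2 fold change was −0.462. Over all genes tested 49.1% had a lower fitted level, 2.76% passed as lower and 2.43% as higher, 10.7% and 11.5% did so at the unadjusted threshold, and DESeq2 passed 4.32% as lower and 3.91% as higher. The 4 were the IRG gene model Gm5431, the guanylate-binding proteins Gbp9 and Gbp5, of which Gbp5 promotes inflammasome assembly, and the dynamin-type GTPase Mx1. Gm5431 fell from 4.40 ± 0.468 to 2.36 ± 0.583 CPM (log2 fold change −0.91, edgeR adjusted p = 0.0113), and 37.3% of its 50-base stretches occur in other genes. Gbp9 fell from 18.8 ± 1.26 to 12.7 ± 2.44 CPM (−0.56, adjusted p = 0.0136). Both had groups that did not overlap. The log2 fold changes of Mx1 and Gbp5 were −0.69 and −0.67 (adjusted p = 0.0416 and 0.0467). The count of 4 fell to 2 in 8 of the 10 fits that left out 1 library, namely those without WT replicate 2, 3, 4 or 5 or without Mir483Pat-KO replicate 2, 3, 4 or 5.

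Set out by position, with genes named after their values were seen, both genomic GBP clusters held lower genes. In the cluster on chromosome 3 the log2 fold changes were −0.67 for Gbp5, −0.32 for Gbp7, −0.85 for Gbp3 and −0.30 for Gbp2, and Gbp2b had at most 2 counts in a library. In the cluster on chromosome 5 they were −0.49 for Gbp4, 0.04 for Gbp8, −0.56 for Gbp9, 0.15 for Gbp6 and 0.63 for Gbp11. Of these 5 genes Gbp9 alone passed, and Gbp11 (edgeR adjusted p = 0.206) had at most 50 counts in a library. On chromosome 11, Gm12250, next to Igtp, was at −0.61 on the same scale (adjusted p = 0.0542). Among the other genes tested there, beside Gm5431 and Tgtp1, 9930111J21Rik1 was at −0.46 (adjusted p = 0.311) and 9930111J21Rik2 at 0.10 (adjusted p = 0.721). Of the 50-base stretches of 9930111J21Rik1, 80.4% also occur in 9930111J21Rik2, and 56.1% the other way, so that the division of reads between them is uncertain. Gm7609, a pseudogene on chromosome 1 that was on the list of related genes, had 0 counts in every library, which allows up to 3 counts in each.

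The genes that carry the interferon signal from ligand to nucleus were examined step by step. Of 25 genes in this list 20 were tested, 4 passed as lower and 2 as higher, against 2.76% and 2.43% of all genes, and the median log2 fold change was 0.0304. At an unadjusted p under 0.05 (edgeR) 4 were lower and 4 higher, against 10.7% and 11.5% of all genes, and DESeq2 passed 4 as lower and 3 as higher, against 4.32% and 3.91%. Among the ligands, Ifnb1, Ifnl2 and Ifnl3 had 0 counts in every library, which allows up to 3 counts in each, and Ifng had 3 counts over all 10 libraries, so that no difference in these ligands was detectable at this depth. The receptor chains had log2 fold changes of 0.04 for Ifngr1, 0.05 for Ifngr2, −0.01 for Ifnar1 and 0.04 for Ifnar2, with standard errors of 0.0769, 0.0795, 0.0613 and 0.0953. Ifnlr1, the chain specific to type III interferons, was at −0.30 ± 0.161 SE (edgeR adjusted p = 0.291), and Il10rb, its partner chain, at 0.09. None of the 6 passed. The receptor genes are named here for their place in the pathway.

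Of the receptor kinases, Jak2 rose from 47.9 ± 4.41 to 59.0 ± 2.65 CPM (log2 fold change 0.30, edgeR adjusted p = 0.0265), and Jak1 was at 0.02 on the log2 scale (adjusted p = 0.861). Of the transcription factors reported here, Stat2 and Irf9, which work in the complex that binds the ISRE, were lower. Stat2 had 94.0, 80.9, 80.3, 93.9 and 103 CPM in WT replicates 1 to 5. In Mir483Pat-KO replicates 1 to 5 it had 72.8, 56.6, 59.7, 58.7 and 57.3 CPM. Every knockout value lay below the WT values, with replicate 1 again the nearest (log2 fold change −0.57 ± 0.0874 SE, edgeR adjusted p = 0.00307). Irf9 fell from 84.9 ± 4.0 to 58.4 ± 11.4 CPM (log2 fold change −0.54, adjusted p = 0.0103), also without overlap. Irf1, the factor most tied to interferon-gamma, stood at 34.6 CPM in WT against 32.0 CPM in the knockout (−0.11, adjusted p = 0.457).

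Nlrc5, the transactivator of MHC class I genes, fell from 6.73 ± 0.478 to 3.07 ± 0.919 CPM (log2 fold change −1.13, edgeR adjusted p = 0.00306). The feedback inhibitors of the pathway went in different directions. Usp18, which removes ISG15 and blocks the type I receptor, fell from 34.6 ± 2.63 to 19.5 ± 5.53 CPM (−0.83, adjusted p = 0.00456). Socs3, which restrains signalling by the interleukin-6 family, rose from 10.7 ± 0.983 to 14.3 ± 1.96 CPM (0.42, adjusted p = 0.0379). For both Jak2 and Socs3 all 5 knockout libraries lay above every WT library. The 2 higher calls were sensitive to which libraries were included. Leaving out knockout replicate 3 or either of WT replicates 4 and 5 left 0 calls, and leaving out WT replicate 3 or any of knockout replicates 2, 4 and 5 left 1. Socs1, the inhibitor of JAK kinases, missed the count filter and stood at 1.04 CPM in WT against 0.406 CPM in the knockout, with no overlap (unadjusted p = 0.00794 in a two-sided exact permutation test, the lowest possible with 5 against 5). Ptpn2 and Pias1, also on this list, were at 0.34 and 0.07 on the log2 scale (edgeR adjusted p = 0.064 and 0.671).

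**Figure D5:**
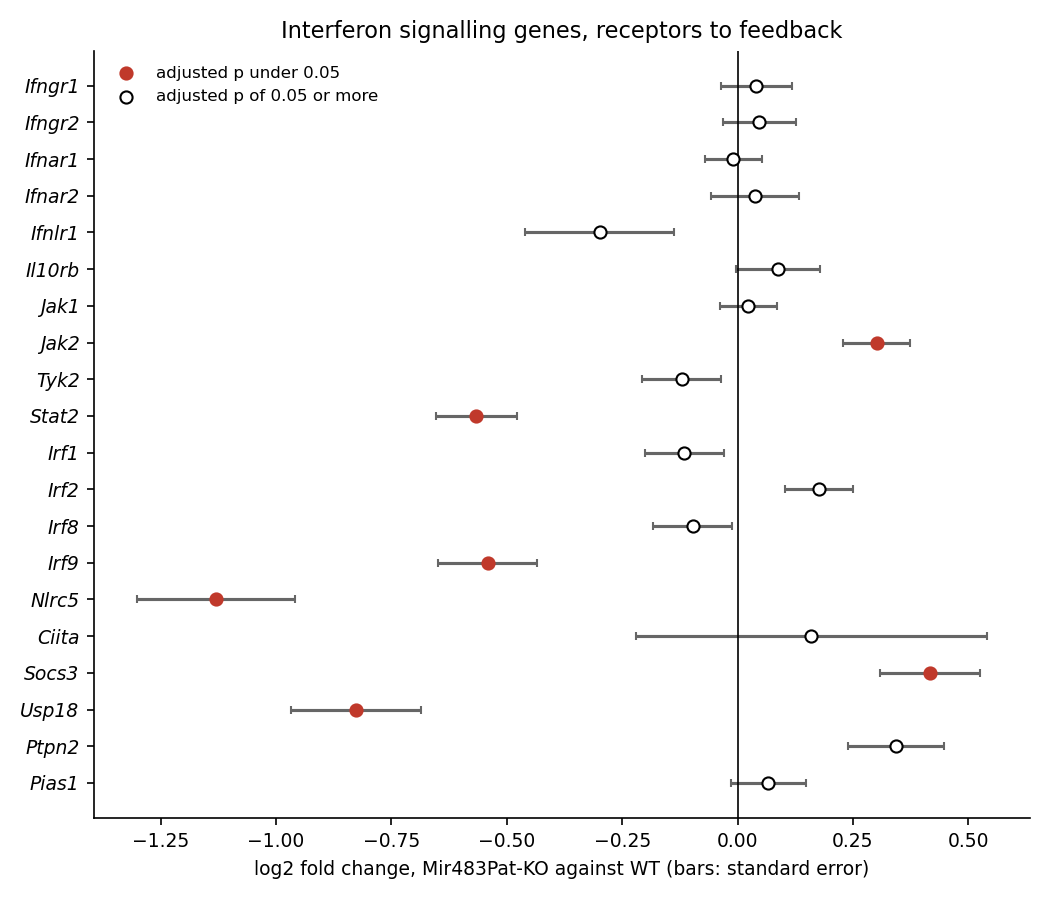
Log2 fold change of Mir483Pat-KO against WT with its standard error for the 20 interferon signalling genes tested, from receptors at the top to feedback inhibitors at the bottom; filled points passed an adjusted p of 0.05. The receptor chains Ifngr1, Ifngr2, Ifnar1 and Ifnar2 lie near 0, and Stat2, Irf9, Nlrc5 and Usp18 lie below it.

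IRG and GBP proteins are known to reach vacuoles with the help of the autophagy conjugation machinery and to feed into inflammasomes. Of 20 genes of autophagy conjugation and vacuole tagging, all tested, 1 passed as lower and 0 as higher (edgeR, with 2 in each direction at an unadjusted p under 0.05, and 1 in each with DESeq2), with a median log2 fold change of 0.041. These shares are close to those of all genes, 2.76% lower at the adjusted threshold and 10.7% lower and 11.5% higher at the unadjusted one, so that the list as a whole gave no result. The single gene that passed was Trim21, a ubiquitin ligase that binds antibody inside cells and is itself known to be induced by interferon, which fell from 19.7 ± 0.676 to 12.6 ± 1.82 CPM (log2 fold change −0.65, edgeR adjusted p = 0.00306). Of 17 genes of cytosolic inflammasomes and their sensors 0 passed under edgeR, with 2 lower and 1 higher at an unadjusted p under 0.05, and 0 passed with DESeq2. Of 11 genes tested of 15 cytokines and receptors that drive interferon-gamma production, 0 passed under edgeR, with 0 lower and 1 higher at an unadjusted p under 0.05, and 0 passed with DESeq2.

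Markers of the cell types of fetal liver were summed in each library. For comparison, 2.76% of all genes passed as lower and 2.43% as higher (edgeR). At an unadjusted p under 0.05, 10.7% were lower and 11.5% higher. Hepatocyte markers, 7 of the 8 listed and with Alb among them, summed to 159000 to 180000 CPM in WT against 148000 to 172000 CPM in the knockout, which fits liver as labelled, with 1 of 7 lower, Apoa1 (two-sided exact permutation test of the sum, p = 0.0635). At an unadjusted p under 0.05 (edgeR) 3 of the 7 were lower and 0 higher, and their median log2 fold change was −0.151. Macrophage markers, a cell type with high levels of IRG and GBP genes, summed to 744 to 926 CPM in WT against 678 to 881 CPM (two-sided exact permutation test, p = 0.484), with 2 of 10 lower, Clec4f and C1qa. The median log2 fold change of the 10 was −0.0234, and at an unadjusted p under 0.05 (edgeR) 3 were lower and 1 was higher, Cd5l at 0.30. Endothelial markers summed to 513 to 578 CPM and 451 to 549 CPM (exact permutation p = 0.0317), with 1 of 9 lower, Tie1. At an unadjusted p under 0.05 (edgeR) 2 of the 9 were lower and 0 higher, with a median log2 fold change of −0.144.

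Stellate cell markers summed to 519 to 929 CPM in WT against 464 to 693 CPM in the knockout (exact permutation p = 0.0635), with 0 of 8 passing and 4 lower and 0 higher at an unadjusted p under 0.05. Of the 8 stellate markers 7 had a lower fitted level, and their median log2 fold change was −0.443, beside −0.326 for the 10 GTPases. Erythroid markers summed to 8190 to 11000 CPM and 9350 to 12600 CPM (exact permutation p = 0.0556), with 0 of 7 passing and 6 higher at an unadjusted p under 0.05, at a median log2 fold change of 0.226. At that threshold 10.7% of all genes were lower and 11.5% higher, and 49.1% of all genes had a lower fitted level. The lymphoid sum, 49.9 to 66.8 CPM in WT against 50.9 to 67.0 CPM in the knockout, gave an exact permutation p of 0.825, with 0 of 6 tested passing, and the exact permutation p was 0.389 for neutrophil and 0.690 for megakaryocyte markers. No list had a marker at 0 in all libraries. The part of these cell types in the GTPase values was not tested.

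The comparison was repeated with the identification number ranges taken into account. In a fit of the lower range alone (4 WT and 2 knockout libraries, among them the knockout library nearest to WT), 0 of the 10 members passed, where 0.138% of all genes passed as lower, and 5 were lower at an unadjusted p under 0.05, against 7.24% of all genes (edgeR). The log2 fold changes there were −0.73 for Irgm1 (edgeR adjusted p = 0.0583), −0.18 for Irgm2, −0.36 for Iigp1, −1.30 for Tgtp2 and −0.64 for Gbp3, with adjusted p-values of 0.363, 0.175, 0.241 and 0.152 for the last 4. The upper range holds a single WT library, replicate 5, which also has the highest Gbp3 value of the WT libraries, and knockout replicates 3, 4 and 5. Its log2 fold changes, from a fit added after the values were seen, are given without a call because the spread among WT livers is not measured there. They were −0.92 for Irgm1, −0.46 for Irgm2, −0.70 for Iigp1, −1.38 for Tgtp2 and −1.26 for Gbp3. When the range entered as a term over all 10 libraries, the same 5 members passed, where 3.85% of all genes passed as lower, with log2 fold changes of −0.79 for Irgm1, −0.28 for Irgm2, −0.48 for Iigp1 (edgeR adjusted p = 0.0497), −1.32 for Tgtp2 and −0.88 for Gbp3. Sequencing indexes were 53 to 57 for WT and 60 to 64 for the knockout libraries, and their order and genotype cannot be told apart.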

How the data were processed

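The authors extracted liver RNA from 5 WT and 5 Mir483Pat-KO fetuses, made polyA libraries from 500 ng of it and aligned read pairs to GRCm38 with STAR. Their counts per gene also came from STAR. They deposited raw counts per Ensembl gene, and how reads with several matches or overlapping genes were counted is not given in the sources used here. Counts were analysed with edgeR 4.0.16 in R 4.3.3 (filterByExpr, TMM scaling, quasi-likelihood F-test of genotype, no covariates), with Benjamini-Hochberg adjustment across 14098 genes. Calls needed an adjusted p under 0.05 and, where stated, a fold change over 1.5. Log2 values per library used a prior count of 2. Single values were compared by exact permutation tests over 252 arrangements. Depth was 10831350 to 14765880 counts per library. A count of 0 was read against 3 counts, which covers counting error only. Same-group libraries differed beyond sampling noise in all 20 pairs (chi-square over its degrees of freedom at least 4.54), so none was counted as a repeat of another.

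Annotation of exons and 3′ UTRs was that of GENCODE release M21, and promoters and microRNAs from RefSeq (GRCm38.p6). Shared sequence was the share of 50-base stretches of a gene's transcripts found in another gene, since reads were 50 bases long. The 14 lists, the members among them, of which 173 of 176 symbols matched, were chosen with earlier results of these data known. All members were named, and of other lists up to 6 genes that passed. Further genes of these lists that did not pass, Socs1 among them, were named outside that rule. Results that rest on items withheld for evaluation are not reported here, and the lists were counted without them. The procedure was tested on simulated data. Equal replicate numbers were checked for pairing. Alternatives used DESeq2 1.42.0 and limma 3.58.1 among others.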

Additional observations from a re-analysis of the deposited data

Results flagged for a closer look

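Of 20 groups of 5 libraries screened, 1 held a value that stood apart, and chance alone gives about 1 in 20. Gbp3 in WT replicate 5 had 13.5 CPM, where the nearest WT library had 10.5 CPM, a gap of 0.814 of the whole WT range. Without WT replicate 5 the log2 fold change of Gbp3 kept its direction and passed.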

How the results depend on the processing

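Over 220 refits, 22 for each of the 10 members, 203 kept the side of the threshold, 14 lost it, 3 gained it and 0 changed direction. The test against a fold change of 1.5 is not in this tally. The fit of the upper range alone, which has 1 WT library, is in it and supplies 1 of the losses of Tgtp2. Iigp1 had 8 of the losses, among them the robust fit (−0.59, adjusted p = 0.0859), Irgm2 and Tgtp2 had 2 each, and Irgm1 and Gbp3 had 1 each. The settings that ended all member calls were the lower identification number range alone and a test against a fold change of 1.5. Each left 0 members lower, with or without the fold change threshold (5 and 3 at an unadjusted p under 0.05, edgeR), and the fewer libraries and the stricter null are part of their construction. In the lower range the counts were 0 for related GTPases, 2 lower and 0 higher for signalling genes and 0 for autophagy genes. The upper range alone, added after the data were seen, has 1 WT library and no measured WT spread, so that its calls bear on no result and are not given.

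Leaving out 1 library gave 3 to 6 members lower (3 without Mir483Pat-KO replicate 4), 3 to 4 with a fold change over 1.5, 2 to 6 related GTPases lower, 4 to 5 signalling genes lower, 0 to 2 higher, and 1 to 2 autophagy genes. The 1 autophagy gene became 3 with the range as a covariate and 2 with DESeq2 or with WT replicate 2 left out. The 0 inflammasome genes became 1 without a count filter and 1 with the range covariate, and the 0 cytokine genes became 1 without a count filter. The cause was not tested. Gbp7 passed without a count filter (−0.31, adjusted p = 0.0495). With at least 10 counts in every library Tgtp2 was not in the fit.

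Same-numbered libraries correlated at 0.0871 on average (−0.0496 to 0.261), against −0.0217 for others, and 2 of 5 correlated best with their own number. Nothing states if equal numbers mark a pairing, and correlations of 5 pairs cannot decide it. With the replicate number as a block, 5 members passed, 4 of them with a fold change over 1.5, Iigp1 was at −0.63 (adjusted p = 0.00334), 4 related GTPases and 4 signalling genes were lower, 3 signalling genes were higher and 2 autophagy genes passed. The share of all genes that passed was not computed for this fit or for the fits that left out 1 library. At this depth Tgtp2, with 5 to 37 counts per library, is the least precise member.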
